A study of Mus musculus with 6 samples.

Results

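The CC chemokines examined here are 10 mouse genes, Ccl2, Ccl3, Ccl4, Ccl5, Ccl7, Ccl8, Ccl9, Ccl20, Ccl25 and Ccl27a, taken by symbol from a deposited table of 55453 genes, in which each symbol matched 1 row. Their messages were counted by RNA sequencing after poly(A) enrichment, in 6 libraries from SB28, a mouse glioma line, with C57BL/6 given as the strain of every library. The compared groups are 3 libraries with the genotype label PP2A KO and titles naming PP2AcKO, and 3 libraries labelled Wild Type with titles naming PP2AcWT. PP2Ac is the subunit that carries the enzyme activity of PP2A, a phosphatase of serine and threonine residues, and the series title links its loss to STING and type I interferon signalling. The labels give no treatment, time point, method of knockout or clone number. The design text of the series describes tumours from SB28 implants in mice that lose PP2Ac through LysM-driven Cre, that is, in myeloid cells of the host, so the labels and the design text place the deletion in different cells, and the groups are called knockout and wild type here only as labelled. No label says that replicates were separate cultures, so p-values may cover technical spread between libraries only.

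CC chemokines are small secreted proteins named for a pair of adjacent cysteines near the amino terminus. They bind G-protein-coupled receptors of the CCR family on leukocytes and draw those cells along a gradient, and cells that respond to inflammatory signals switch many of them on through NF-kB. Gliomas are known to make CC chemokines, among which Ccl2 and its relatives attract monocytes that become tumour macrophages. Most of the mouse family sits in gene clusters on chromosome 11. Ccl2, Ccl7 and Ccl8 lie there within 81.2 kb, between positions 82035571 and 82116799, and Ccl5, Ccl9, Ccl3 and Ccl4 lie within 138.9 kb, between 83525778 and 83664683 (GRCm38, GENCODE M21). Ccl20 is on chromosome 1 (83116766 to 83119167, plus strand), Ccl27a on chromosome 4 (41769467 to 41774247, minus strand) and Ccl25 on chromosome 8 (4325210 to 4360020, plus strand). All 10 are protein-coding genes, and a count sums reads over the exons of a gene.

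The sequence before the transcription start is shown for Ccl20 and Ccl3, which had the highest ratios of knockout to wild type, and for Ccl9, which was lower in the knockout. The windows hold the 250 bases before the RefSeq start on GRCm38.p6, written 5′ to 3′ on the strand of the gene, at chr1:83116516-83116765 for Ccl20 (plus strand), chr11:83649379-83649628 for Ccl3 (minus strand) and chr11:83578637-83578886 for Ccl9 (minus strand). Capitals mark every match, on either strand, to the NF-kB consensus, to the AP-1 string TGANTCA, to the interferon-response consensus, to the C/EBP string TTGCNNAA or to the TATA-box string TATAAA.
Ccl20: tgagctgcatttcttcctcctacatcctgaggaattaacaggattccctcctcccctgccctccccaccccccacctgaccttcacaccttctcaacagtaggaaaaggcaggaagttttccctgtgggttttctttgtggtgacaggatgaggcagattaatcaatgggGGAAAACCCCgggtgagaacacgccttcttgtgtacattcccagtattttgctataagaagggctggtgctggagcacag
Ccl3: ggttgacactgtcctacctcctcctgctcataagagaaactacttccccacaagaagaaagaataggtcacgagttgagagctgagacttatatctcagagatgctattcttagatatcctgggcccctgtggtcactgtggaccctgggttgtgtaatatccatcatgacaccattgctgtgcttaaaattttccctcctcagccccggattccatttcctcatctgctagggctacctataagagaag
Ccl9: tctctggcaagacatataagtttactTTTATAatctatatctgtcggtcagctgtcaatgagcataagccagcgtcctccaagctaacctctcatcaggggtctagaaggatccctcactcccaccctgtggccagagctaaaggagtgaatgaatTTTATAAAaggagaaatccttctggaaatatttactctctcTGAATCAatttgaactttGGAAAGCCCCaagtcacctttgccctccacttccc
The capitals in the Ccl20 window are 1 match to the NF-kB consensus, GGAAAACCCC, from 80 to 71 bases before the start. The Ccl9 window holds an NF-kB match, GGAAAGCCCC, from 35 to 26 bases before the start, an AP-1 match, TGAATCA, from 53 to 47 bases before it, and 3 TATA-box matches, of which 2 overlap each other. The Ccl3 window has no match to any of the 5 motifs. Of the 32851 windows of this length in the RefSeq table, 7.25% hold the NF-kB consensus, 6.75% the AP-1 string, 2.98% the interferon-response consensus, 9.56% the C/EBP string and 12.4% the TATA-box string. For 6 members (Ccl3, Ccl8, Ccl9, Ccl20, Ccl25 and Ccl27a), 9 windows were at hand. Ccl2, Ccl4, Ccl5 and Ccl7 had no window and were not scanned. The NF-kB consensus was found in 2 of the 9 (Ccl20 and Ccl9) and the AP-1 string in 2 (Ccl27a and Ccl9). The C/EBP string was found in 2 overlapping windows of Ccl27a and the TATA-box string in 3 (Ccl25, Ccl8 and Ccl9). The interferon-response consensus was found in 0. A match is a run of letters and not a measured binding site.

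Library totals ranged from 40245915 to 46149908 counts in the knockout and from 38735864 to 49344079 in wild type. Ppp2ca, which encodes the main PP2A catalytic subunit, had 217, 187 and 193 CPM (read counts scaled to library size and TMM factor) in knockout 1, 2 and 3 and 274, 244 and 247 CPM in wild type 1, 2 and 3. The Ppp2ca message was lower but still abundant in the knockout libraries (log2 fold change -0.36, SE 0.08, edgeR adjusted p = 0.00377), and an RNA from the opposite strand overlaps 39.9% of its exons by length. Libraries numbered 1 stood apart from the others of their groups: the chi-square per degree of freedom was 48.4 and 42.1 for the knockout pairs with library 1 against 3.41 for knockout 2 and 3, and 40.8 and 29.7 for the wild-type pairs with library 1 against 4.61 for wild type 2 and 3. Markers of SB28 and of other cell types were read in the same libraries. Of the SB28 markers, Vim had 1882 ± 64.7 CPM in knockout and 4791 ± 98.3 CPM in wild type and Sox2 78.4 ± 4.39 and 116 ± 1.84 CPM (SD, n = 3). Nes had 151, 170 and 171 CPM in knockout 1, 2 and 3 and 346, 386 and 371 CPM in wild type 1, 2 and 3. All of these were lower in the knockout (edgeR adjusted p = 3.07e-07 for Vim, 8.16e-05 for Sox2 and 2.15e-06 for Nes). Pdgfra, Nras and Pdgfb were higher by 0.30, 0.29 and 0.44 on the log2 scale, and Cd44 did not pass (log2 fold change 0.06, edgeR adjusted p = 0.507). Gfap had 10 counts in knockout and 5 in wild type and Olig2 had 0 in all 6 libraries.

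Myeloid cells are a main source of CC chemokines in tissue. Whether such cells added to the levels below was not tested. Of 12 myeloid markers, Adgre1, Tyrobp and Cd52 had 0 counts in all 6 libraries, and the pan-leukocyte gene Ptprc had 11 counts in the knockout and 31 in wild type. The summed level of the 12 was 51.5 to 57.6 CPM in the knockout and 14.2 to 16.1 CPM in wild type. Cd14 made up most of that sum, at 49.4 ± 3.11 CPM in knockout and 11.3 ± 0.997 CPM in wild type, followed by Cd68 at 4.43 ± 0.304 and 3.01 ± 0.28 CPM (SD, n = 3), and the other 10 markers stayed under 1 CPM in every library. Lyz2, the gene whose promoter drives LysM-Cre, had 44 counts in the knockout and 1 in wild type. The rest of these rare markers went both ways. Fcer1g had 37 counts in the knockout and 16 in wild type, and Itgam had 2 and 0. Csf1r had 10 counts in the knockout and 23 in wild type, Cx3cr1 had 4 and 7, and Aif1 had 1 and 1. Of 10 markers of T, NK and B cells, 7 had 0 counts, and their sum was 0.102 to 0.202 CPM in the knockout and 0.0454 to 0.215 CPM in wild type. Endothelial markers summed to 537 to 564 CPM in the knockout and 514 to 551 CPM in wild type, most of it Cdh5, while Cldn5 had 0 counts. Within that list Kdr was higher in the knockout (7.78 ± 0.402 against 1.65 ± 0.331 CPM) and Tek lower (0.295 ± 0.036 against 1.4 ± 0.266 CPM). Markers of fibroblasts and pericytes summed to 1274 to 1846 CPM in the knockout and 2317 to 3211 CPM in wild type, with members moving both ways: Col1a1 did not pass (log2 fold change -0.41, edgeR adjusted p = 0.0726), Col1a2 had 15 ± 2.08 CPM in knockout and 855 ± 114 CPM in wild type, Dcn 32.7 ± 4.54 and 1.28 ± 0.351 CPM, and Pdgfrb 129 ± 7.62 and 81.2 ± 6.84 CPM (SD, n = 3). Markers of neurons and oligodendrocytes summed to 1.9 to 2.12 CPM in the knockout and 2.92 to 3.4 CPM in wild type. In RNA from a mixture, fewer cells of a type and less RNA per cell cannot be told apart.

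Knockout libraries held far more CC chemokine message than wild-type libraries, and most of it came from Ccl2, Ccl7, Ccl20 and Ccl5. The 10 members together made up 586, 585 and 567 CPM in knockout 1, 2 and 3 and 68.1, 63.5 and 67.4 CPM in wild type 1, 2 and 3, a ratio of means of 8.73. Of the 10, 8 were higher and 2 lower in the knockout at an adjusted p under 0.05 (edgeR's quasi-likelihood test, Benjamini-Hochberg adjustment over 14877 tested genes). Over all tested genes, 31.9% were called higher and 32.1% lower, 64% in all. All 10 members passed the filter on low counts, but Ccl3, Ccl4 and Ccl8 passed it through the knockout libraries alone. Such a passage favours genes that are higher in the knockout, so these 3 calls carry less weight. Among the 7 that passed in both groups, 5 were higher and 2 lower. At least 8-fold higher values were found for 6 of the 10 members, of which 3 (Ccl2, Ccl7 and Ccl20) are among the 7 that passed in both groups, and for 2.42% of tested genes. The libraries of the groups did not overlap for any member, with 8 higher and 2 lower in the knockout, nor for 68.3% of all tested genes, 33.9% higher and 34.4% lower. The median log2 fold change was 3.43 over the 10 members, 1.45 over the 7 that passed in both groups and -0.01 over all tested genes, and neither count nor median is read as evidence about the family.

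**Figure D1:**
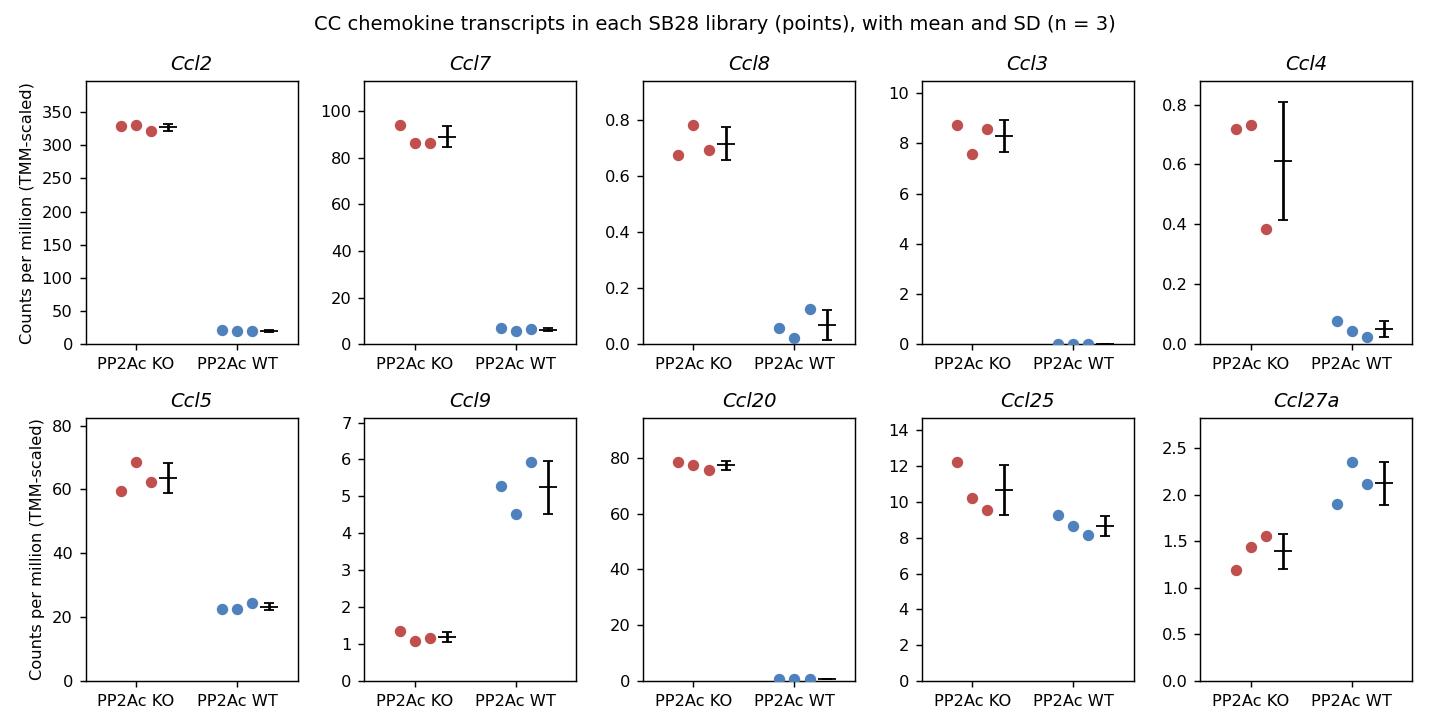
Level of each of the 10 CC chemokine genes in every library, in CPM on axes that start at 0, with knockout at the left and wild type at the right of each panel; points are libraries in the order 1, 2, 3, and the bar beside them is the mean with its SD (n = 3). The groups do not overlap in any panel, and wild type is the higher group only for Ccl9 and Ccl27a.

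Ccl2, the main attractant of Ccr2-bearing monocytes, was the most abundant member in the knockout. It was present at 329, 331 and 321 CPM in knockout 1, 2 and 3, against 21.4, 19.3 and 19.3 CPM in wild type 1, 2 and 3. The groups were far apart and each was tight, with an SD of 5.28 CPM in knockout and 1.24 CPM in wild type (n = 3). The gene was 16.3-fold higher (log2 fold change 4.03, SE 0.08, edgeR adjusted p = 2.43e-09).

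Ccl7, a monocyte attractant that shares the receptor Ccr2 with Ccl2 and lies next to it, was higher as well. Its level was 94.0, 86.3 and 86.4 CPM in knockout 1, 2 and 3 and 6.81, 5.49 and 6.57 CPM in wild type 1, 2 and 3. This was a 14.1-fold difference (log2 fold change 3.82, SE 0.10, edgeR adjusted p = 1.34e-08). The log2 ratio of Ccl2 to Ccl7 counts within a library was 1.88 ± 0.0666 in knockout and 1.67 ± 0.131 in wild type. These ratios overlapped between the groups, and the difference of 0.21 had p = 0.2 in an exact two-sided permutation test (p = 0.2 adjusted over 3 pairs), where 0.1 is the smallest value that 3 against 3 can give. Paired by library number, the difference was positive in 3 of 3 pairs (0.16, 0.13 and 0.34), and an exact paired permutation test, chosen after seeing the data, gave p = 0.25, the smallest value that 3 pairs allow.

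Ccl8, which in the mouse activates Ccr8, is the third member of this cluster with a measurable level. It was rare, at 30, 32 and 27 counts in knockout 1, 2 and 3 and 3, 1 and 5 counts in wild type 1, 2 and 3, or 0.714 ± 0.0583 and 0.0691 ± 0.0524 CPM (SD, n = 3). It was 10.3-fold higher (log2 fold change 3.36, SE 0.40, edgeR adjusted p = 9.09e-05), with a wild-type level that rests on 9 counts. Without wild type 3 it was 16-fold higher, and over all libraries left out in turn the fold ran from 7.85 to 16. Other genes of the same cluster stayed silent: Ccl12 and Ccl1 had 0 counts in all 6 libraries, and Ccl11, an eosinophil attractant between Ccl7 and Ccl12, had 4 counts in each group. A group total of 0 counts allows up to 0.024 CPM in the knockout and 0.0222 CPM in wild type. The flanking genes Spaca3, 5530401A14Rik and Tmem132e had 0 counts in both groups, Asic2 had 1 count in the knockout and 0 in wild type, and Cct6b had 16 counts in the knockout and 13 in wild type. Zfp830, the sixth flanking gene, was higher by 0.23 on the log2 scale (SE 0.08, edgeR adjusted p = 0.0252).

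Ccl3, a ligand of Ccr1 that draws macrophages and T cells, had the highest ratio of the members. Counts were 390, 310 and 335 in knockout 1, 2 and 3 and 1, 0 and 0 in wild type 1, 2 and 3. The knockout mean was 8.29 ± 0.632 CPM (SD, n = 3), and the wild-type libraries were at the limit of detection. With 1035 counts in the knockout against 1 in wild type, the ratio of scaled counts was 1119, with a 95% exact counting interval of 200.4 to 44244, which covers counting error only (edgeR adjusted p = 3.78e-08 for the gene). The single wild-type count lay in wild type 1, and without that library Ccl3 was at least 232-fold higher, taking 3 counts as the limit for both remaining wild-type libraries together.

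Ccl4, which attracts macrophages and T cells and lies beside Ccl3 in opposite orientation, was much less abundant. It had 32, 30 and 15 counts in knockout 1, 2 and 3 and 4, 2 and 1 counts in wild type 1, 2 and 3. The knockout libraries were all higher, at 0.611 ± 0.197 against 0.0496 ± 0.0268 CPM (SD, n = 3; log2 fold change 3.50, SE 0.47, edgeR adjusted p = 0.000193). The log2 ratio of Ccl3 to Ccl4 was 3.79 ± 0.572 in knockout and -1.83 ± 0.425 in wild type, and every knockout library was above every wild-type library. The difference of 5.62, with 0.5 added to each count, had p = 0.1 in the exact two-sided permutation test (0.15 adjusted over 3 pairs), the smallest value possible here. With 2 added to each count it was 4.57, because the wild-type counts are so few. Wild-type Ccl3 counts were 1, 0 and 0, so the added value largely sets the wild-type ratios and their SD. Both genes also passed the filter through the knockout libraries alone, and no conclusion is drawn from this test.

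Ccl5, an attractant of T cells and an interferon-responsive gene, was already well expressed in wild type. It had 59.5, 68.7 and 62.2 CPM in knockout 1, 2 and 3 and 22.6, 22.5 and 24.5 CPM in wild type 1, 2 and 3. The groups did not overlap, and the gene was 2.73-fold higher (log2 fold change 1.45, SE 0.08, edgeR adjusted p = 8.41e-07). Its increase was the smallest among the 4 higher members of the chromosome 11 clusters that reached 5 CPM in the knockout, Ccl2, Ccl7, Ccl3 and Ccl5.

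Ccl9, a Ccr1 ligand of the mouse, went the other way although it lies between Ccl5 and Ccl3. It had 1.34, 1.07 and 1.15 CPM in knockout 1, 2 and 3, against 5.29, 4.51 and 5.94 CPM in wild type 1, 2 and 3. All knockout libraries were below all wild-type libraries, and the gene was 4.39-fold lower (log2 fold change -2.13, SE 0.16, edgeR adjusted p = 4.47e-06). The log2 ratio of Ccl5 to Ccl9 was 5.73 ± 0.264 in knockout and 2.15 ± 0.146 in wild type, a difference of 3.58 (p = 0.1 in the exact two-sided permutation test, 0.15 adjusted over 3 pairs). With Ccl5 higher and Ccl9 lower in every knockout library, the ratios had to lie apart and give the smallest possible p. No conclusion is drawn from this test. Ccl6, the gene next to Ccl9, had 1 count in the knockout and 3 in wild type. On the side of Ccl5, Taf15 and Mmp28 were higher in the knockout by 0.38 and 1.02 on the log2 scale (SE 0.08 and 0.13, edgeR adjusted p = 0.00278 and 0.000121), and Heatr9 did not pass (log2 fold change 0.87, SE 0.36, adjusted p = 0.0621). On the side of Ccl4, Wfdc17 had 7 counts in the knockout and 0 in wild type, and Wfdc18 and Wfdc21 had 0 in both.

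**Figure D2:**
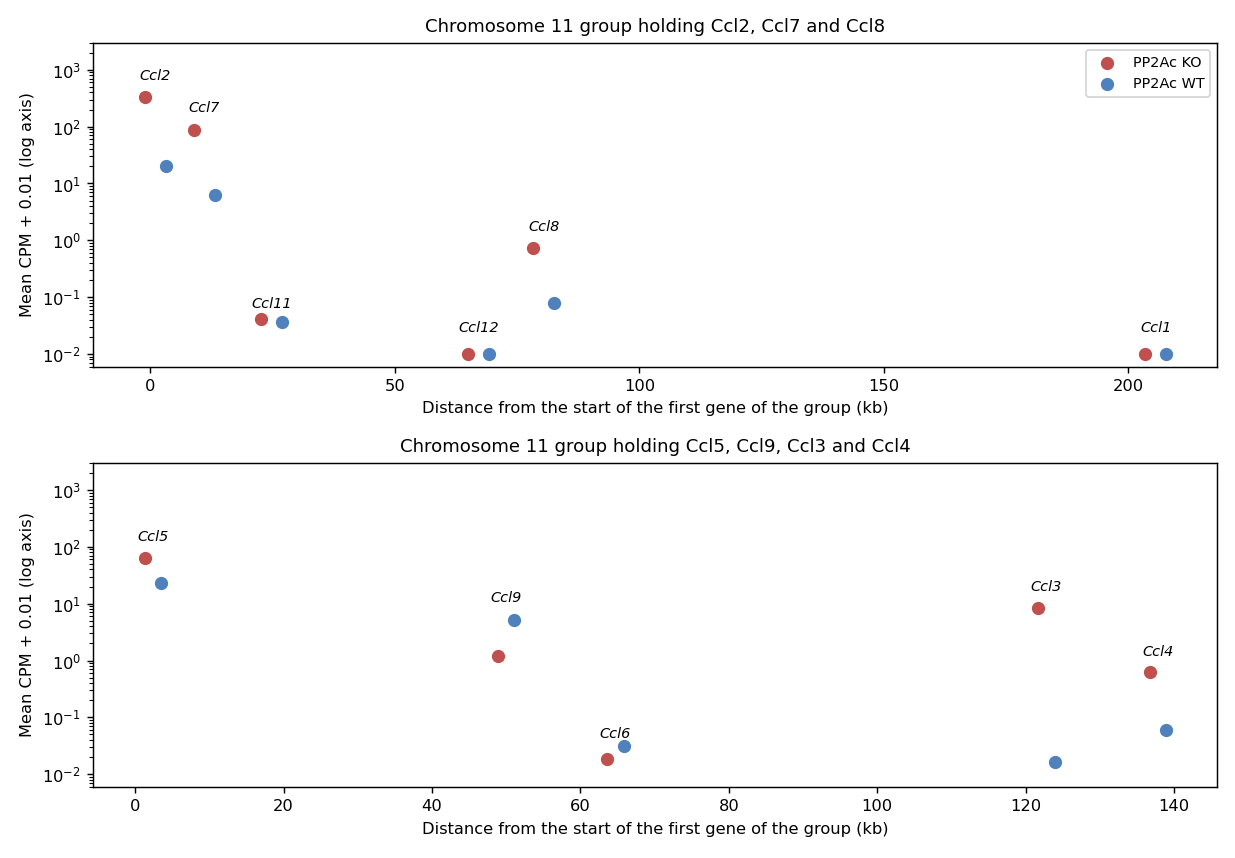
Mean level of each CC chemokine gene in its chromosome 11 cluster, against the distance in kb of the middle of the gene from the start of the first gene shown; the vertical axis is logarithmic, in CPM plus 0.01, and the points of both groups are moved slightly sideways, knockout to the left. Levels of neighbours differ by orders of magnitude, and Ccl11, Ccl12, Ccl1 and Ccl6 lie near the bottom in both groups. Ccl9 is the member with the knockout point below the wild-type point. The knockout point of Ccl6, a gene outside the member list, is also lower, from 1 count in the knockout and 3 in wild type.

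Outside chromosome 11, Ccl20 showed the largest fitted change after Ccl3. This ligand of Ccr6, which attracts dendritic cells and IL-17-producing T cells, had 78.6, 77.5 and 75.6 CPM in knockout 1, 2 and 3 and 0.666, 0.635 and 0.655 CPM in wild type 1, 2 and 3. Replicates differed by little beside a 118-fold difference between the groups (log2 fold change 6.88, SE 0.10, edgeR adjusted p = 6.7e-10). The window before its start, shown above with an NF-kB match, is 51.2% G and C.

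Ccl25 and Ccl27a, chemokines known from thymus and gut and from skin, had the smallest fold changes of the 10. Ccl25, the ligand of Ccr9, had 12.3, 10.2 and 9.56 CPM in knockout 1, 2 and 3 and 9.26, 8.64 and 8.13 CPM in wild type 1, 2 and 3. The groups were next to each other without overlap, with a log2 fold change of 0.30 (SE 0.12, edgeR adjusted p = 0.0482). That call was lost with DESeq2 (adjusted p = 0.0528), with upper-quartile scaling (0.104) and when any one of knockout 1 (0.12), knockout 2 (0.0622), wild type 2 (0.11) or wild type 3 (0.156) was left out. Exons of Elavl1, an abundant gene on the opposite strand at 350 ± 27.4 CPM in knockout and 188 ± 7.48 CPM in wild type (SD, n = 3), cover 204 bases or 2.74% of the Ccl25 exon bases. The strand setting of the counting is not given in the sources used here, and the part of Elavl1 in the Ccl25 count was not tested.

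Ccl27a, the Ccr10 ligand of keratinocytes, had 1.19, 1.44 and 1.56 CPM in knockout 1, 2 and 3 and 1.9, 2.36 and 2.11 CPM in wild type 1, 2 and 3. All knockout libraries lay below the wild-type libraries, and the level was 1.52-fold lower (log2 fold change -0.61, SE 0.17, edgeR adjusted p = 0.0111). Ccl27b, a near-identical copy, had 0 counts in all 6 libraries, so reads of these copies may have been assigned to one of them or dropped, and the level of Ccl27a is uncertain.

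Against a fold change of 1.5 (edgeR glmTreat), 7 members were called higher and 1, Ccl9, lower (4 and 1 among the 7 that passed the filter in both groups), while 26.7% of all tested genes passed, 13.5% higher and 13.2% lower. Ccl25 and Ccl27a did not pass this test (adjusted p = 1 after rounding and 0.537).

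Levels were also set beside each other per kb of exon, as CPM divided by the summed exon length of each gene, since longer genes give more reads. In the knockout the order was Ccl2 (287 ± 4.64 CPM per kb), Ccl7 (111 ± 5.52), Ccl5 (66.1 ± 4.91), Ccl20 (54.4 ± 1.1) and Ccl3 (10.8 ± 0.825), with the other 5 members at 1.43 CPM per kb or less on average. In wild type Ccl5 led at 24.2 ± 1.19 CPM per kb, followed by Ccl2 at 17.6 ± 1.09 and Ccl7 at 7.85 ± 0.882, and Ccl9 was the fourth at 1.72 ± 0.235 (SD, n = 3). Library ranges of neighbours in this order overlapped for Ccl25 and Ccl8 and for Ccl4 and Ccl27a in the knockout, and for Ccl8 and Ccl4 in wild type. Per kb, Ccl9 was the fourth of 10 in wild type and the last in the knockout. Ccl3 was the fifth in the knockout and the last in wild type. The lengths join all annotated exons of a gene, 7.445 kb for Ccl25 and 3.045 kb for Ccl9, and the order depends on them. By CPM alone, Ccl25 (8.68) stood above Ccl7 (6.29) and Ccl9 (5.25) in wild type. In the knockout, Ccl9 (1.19 CPM) then stood above Ccl8 (0.714) and Ccl4 (0.611).

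The make-up of the CC chemokine message was not the same in the groups. Per kb, Ccl2 held 53.8% ± 0.215 of the summed members in knockout and 32.5% ± 1.75 in wild type, and Ccl5 held 12.4% ± 0.894 in knockout and 44.8% ± 1.98 in wild type (SD, n = 3). Ccl7 accounted for 20.8% ± 0.885 in knockout and 14.5% ± 1.06 in wild type. Ccl20 accounted for 10.2% ± 0.0643 in knockout and 0.849% ± 0.0183 in wild type. Shares sum to a fixed total, so the lower share of Ccl5 in the knockout stands beside a higher level. The shares also depend on the exon lengths. Of counts not divided by length, Ccl2 held 56.4% in knockout and 30.1% in wild type, and Ccl5 11% and 35%. Ccl25 held 1.84% and 13.1% of counts, against 0.268% and 2.16% per kb.

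**Figure D3:**
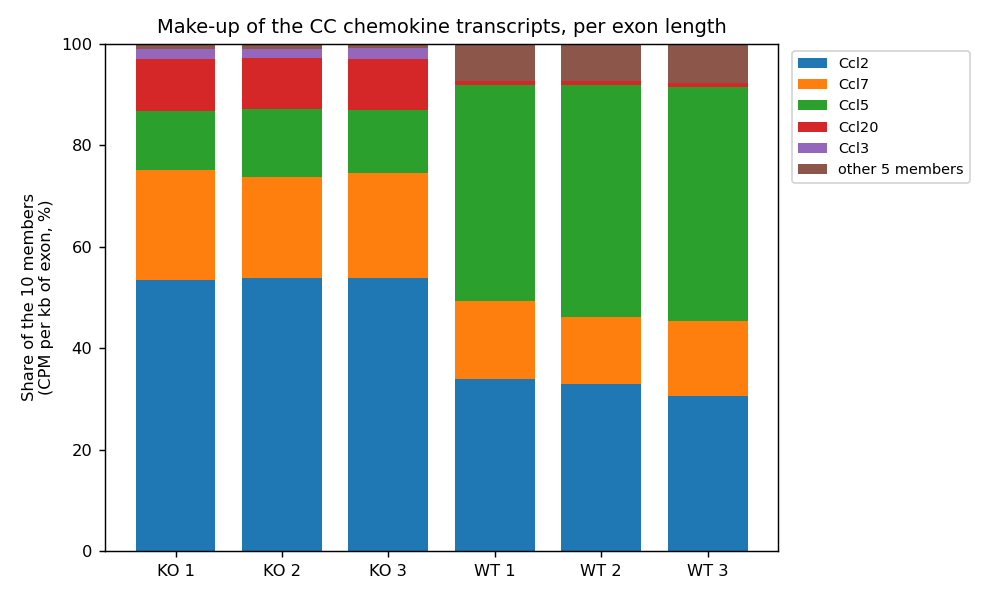
Share of each CC chemokine in the summed level of the 10 members, in percent of CPM per kb of exon, for each library, with the 3 knockout libraries at the left and the 3 wild-type libraries at the right. Ccl2 takes 53.8% on average in knockout and 32.5% in wild type, Ccl5 takes 12.4% and 44.8%, and the libraries of a group look alike.

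Most other CC chemokine genes were not detected. Of 14 further family genes, 10 had 0 counts in every library, among them Ccl17's neighbour Ccl22 and the lymph-node chemokines Ccl19, Ccl21a, Ccl21b and Ccl21c, whose near-identical copies make counting uncertain. Ccl17 had 0 counts in the knockout and 1 in wild type. The gene that passed the filter, through the knockout libraries alone, was Ccl28, a mucosal chemokine that binds Ccr10. It had 40, 26 and 23 counts in knockout 1, 2 and 3 and 16, 13 and 9 counts in wild type 1, 2 and 3 (log2 fold change 1.33, SE 0.28, edgeR adjusted p = 0.00278). Passing through the knockout alone favours a higher value there, so the Ccl28 call carries less weight.

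The receptors were nearly silent, with Ccr1 as the exception. Of 15 genes for CC chemokine receptors, atypical receptors and relatives, 2 passed the filter, both through the knockout libraries alone, and both were called higher. Such a passage favours genes that are higher in the knockout, so these 2 calls carry less weight. Over all tested genes, 31.9% were called higher. Ccr1, a receptor for Ccl3, Ccl5, Ccl7 and Ccl9, had 256, 177 and 146 counts in knockout 1, 2 and 3 and 5 counts in each wild-type library. It reached 4.6 ± 1.03 CPM in knockout and 0.112 ± 0.014 CPM in wild type (SD, n = 3; log2 fold change 5.34, SE 0.28, edgeR adjusted p = 5.24e-07). Ccrl2, an atypical receptor that does not drive migration, had 0.639 ± 0.048 CPM in knockout and 0.133 ± 0.00619 CPM in wild type (log2 fold change 2.24, SE 0.27, edgeR adjusted p = 0.000101). Ccr2, the receptor of Ccl2 and Ccl7, had 0 counts in the knockout and 3 in wild type. Ccr6, the receptor of Ccl20, and Ccr8 had 0 counts in all 6 libraries. Ccr9 and Ccr10, the receptors of Ccl25 and Ccl27a, had 1 and 0 counts in the knockout and 0 and 1 in wild type.

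Genes that control chemokine transcription and message decay were mostly higher. Of 19 such genes, all tested in both groups, 16 were higher and 3 lower, with a median log2 fold change of 1.25, beside 31.9% higher, 32.1% lower and a median of -0.01 over all tested genes. Among the subunits of NF-kB, Nfkb1 had 239 ± 5.18 CPM in knockout and 119 ± 4.04 CPM in wild type (SD, n = 3; 2.01-fold higher, edgeR adjusted p = 1.47e-06). Rela, Relb, Rel and Nfkb2 were higher by 0.41, 0.90, 0.79 and 0.61 on the log2 scale. Among genes that NF-kB itself induces, Nfkbiz, a nuclear co-activator, was 7.65-fold higher, the inhibitor gene Nfkbia 3.99-fold and the deubiquitinase gene Tnfaip3 3.23-fold (edgeR adjusted p = 1.08e-08, 6.77e-08 and 7.47e-08).

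Other transcription factors of this list moved both ways. Cebpb, a factor of acute inflammation, had 440 ± 69.9 CPM in knockout and 70.7 ± 13.5 CPM in wild type (SD, n = 3; log2 fold change 2.64, SE 0.16, edgeR adjusted p = 1.56e-06), although opposite-strand Tmem189 overlaps 20.7% of its exons by length. The interferon-signalling gene Irf7 was 5.23-fold higher, and the AP-1 genes Fosl1 and Fos 3.1-fold and 2.38-fold higher. Opposite-strand Ccdc85b overlaps 57.2% of the Fosl1 exons by length. Jun, Irf1 and Irf3 were lower, by log2 fold changes of -0.31, -0.42 and -0.41 (edgeR adjusted p = 0.0366, 0.0019 and 0.0115), and none of these passed the test against a fold change of 1.5. Jun also lost the call without knockout 1 (adjusted p = 0.068), wild type 2 (0.119) or wild type 3 (0.108).

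Genes for proteins that act on the decay of chemokine messages were higher too. Zc3h12a, which encodes the endonuclease regnase-1, a negative regulator of inflammatory messages, had 115, 136 and 141 CPM in knockout 1, 2 and 3 and 8.91, 10.3 and 9.74 CPM in wild type 1, 2 and 3. Its groups were far apart (log2 fold change 3.76, SE 0.11, edgeR adjusted p = 2.07e-08). Zfp36, which encodes tristetraprolin, a protein that binds AU-rich messages and speeds their decay, was 3.63-fold higher (edgeR adjusted p = 1.22e-06). Elavl1, which encodes HuR, a protein that stabilises such messages, was 1.86-fold higher (edgeR adjusted p = 9.59e-06).

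**Figure D4:**
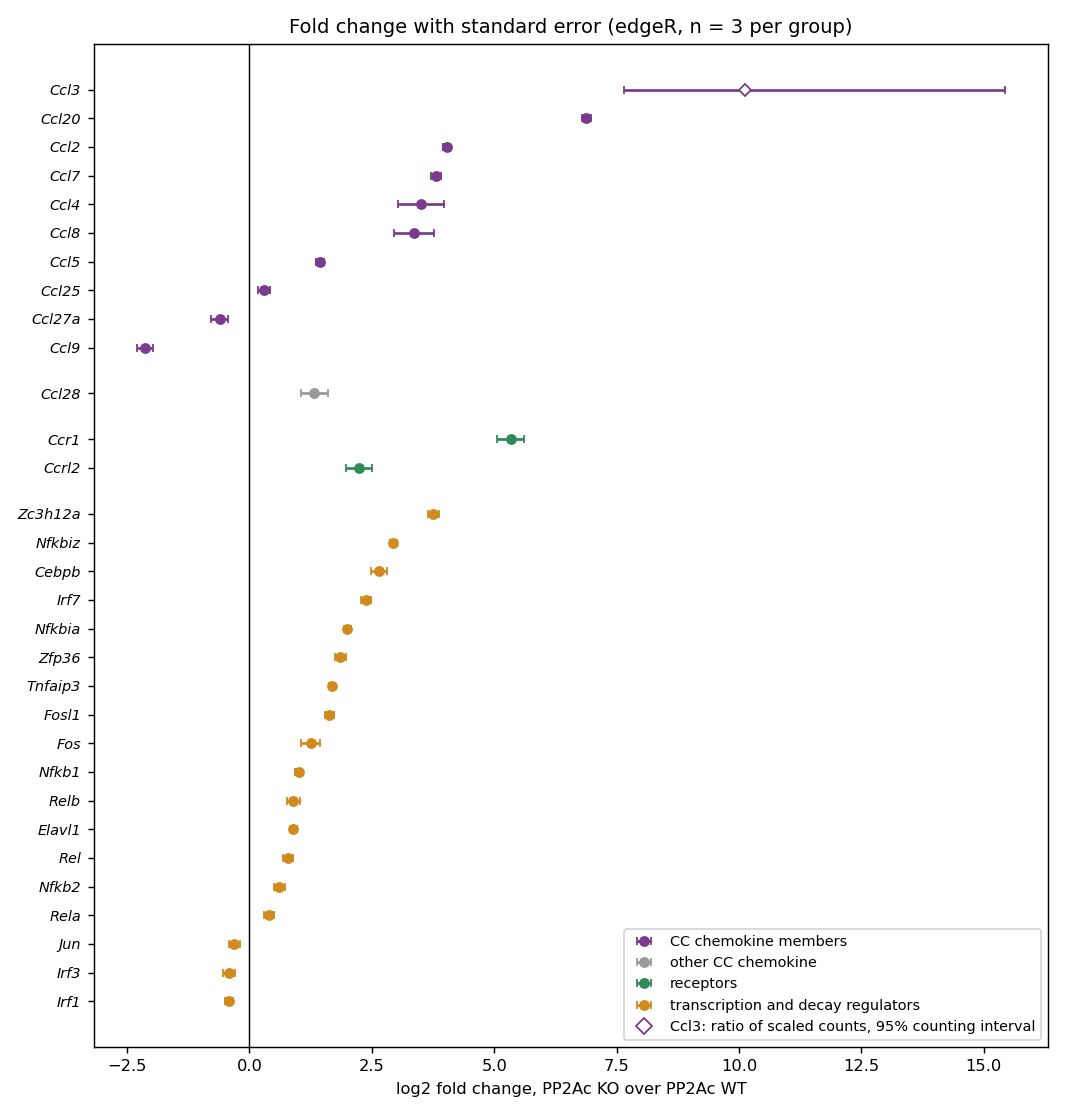
Log2 fold change of knockout over wild type for the tested genes of the 4 lists that are reported here, ordered by size within each list; filled points are edgeR estimates with their standard error (n = 3 per group), and the open diamond is the ratio of scaled Ccl3 counts with its 95% counting interval. Ccl3, Ccl20, the receptor gene Ccr1, Ccl2 and Ccl7 stand at the right, Ccl9 at the left, and among the regulators Zc3h12a lies farthest to the right.

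The genes whose pattern over the 6 libraries was most like that of Ccl2, the member with the highest mean, were Mt2, Abcb1a and Zbp1, among 10232 genes with a mean of at least 5 CPM. The root-mean-square difference between their log2 CPM and that of Ccl2, each centred on its own mean, was 0.0663 for Mt2, a metallothionein gene, 0.103 for Abcb1a, a drug efflux pump gene, and 0.127 for Zbp1, which senses nucleic acids of the Z form. Mt2 had 321 ± 25.9 CPM in knockout and 19.5 ± 1.56 CPM in wild type (SD, n = 3), levels close to those of Ccl2. With 6 libraries in 2 groups this likeness mostly reflects an equal fold change.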

How the data were processed

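The authors deposited a table of unnormalized counts with 1 row per gene symbol and a column for each library, and 0 columns of other samples. Per the submitters' processing notes, which give no roles, the tools were limma 3.48.3, edgeR 3.34.0, HTSeq 0.11.2, STAR 2.7.1a and fastp 0.20.0, and the builds are GRCm38 and mm10. The sources used here state neither the annotation release nor the strand setting. Columns were matched to samples by title.

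From the deposited counts, genes were kept by filterByExpr (14877 tested), scaled by TMM and compared with the quasi-likelihood test of edgeR 4.0.16 in R 4.3.3, with Benjamini-Hochberg adjustment over all tested genes and a threshold of 0.05. DESeq2 1.42.0 was an alternative. Each SE is the fold change divided by the square root of its F statistic. Within-library ratios of neighbouring members were compared with exact permutation tests (scipy 1.17.1). Where a group had 1 to 3 counts, the ratio carries a 95% Clopper-Pearson interval; where it had 0, a floor of 3 counts over the group was used. Without molecular identifiers, both cover counting error only. Positions and exon lengths come from GENCODE M21, promoter sequences from RefSeq (GRCm38.p6).

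Same-numbered libraries deviated together from their group means (r = 0.443, 0.161 and 0.15 for numbers 1, 2 and 3 across genes). Libraries with unlike numbers did so too, at r = 0.189 for knockout 2 and wild type 3 and 0.15 for knockout 3 and wild type 2. Only the libraries numbered 1 therefore stood apart as a pair. Whether numbers 2 and 3 pair libraries cannot be told from these values, and no label says so. The main fit used no block.

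The members, the gene lists and the tests were chosen with earlier results of these data known. Named are all members, genes of the other family, receptor and regulator lists (of these, 2 are counted with their lists but not reported singly here), the cell type markers, Ppp2ca, cluster neighbours, and the 3 genes most like the most abundant member. Figures were drawn from the same values.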

Additional observations from a re-analysis of the deposited data

How the results depend on the processing

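Across 13 alternatives for each of the 10 members, 130 in all, 0 log2 fold changes reversed and 122 kept both direction and call. For 8 members every alternative gave the same call. With the replicate number as a block, no call of a member changed, and Ccl25 had a log2 fold change of 0.30 (adjusted p = 0.002). Ccl25 fell below the threshold with upper-quartile scaling (log2 fold change 0.23), with DESeq2 (0.31) and against a fold change of 1.5 (0.30), and leaving out 1 library at a time gave 0.20 to 0.38 (adjusted p from 0.0339 to 0.156). Over all alternatives its adjusted p ran from 0.002 to 1 after rounding. Ccl27a did not pass against a fold change of 1.5 (-0.61), where 1 member was lower; there, 2009 of all tested genes were higher and 1957 lower, and 0 regulators lower. Over all alternatives the adjusted p of Ccl27a ran from 0.00263 to 0.537. With both libraries numbered 1 left out, 8 members were higher and 2 lower, as in the full set. Upper-quartile scaling shifted the median of all genes by -0.06 on the log2 scale. The Ccl3 to Ccl4 difference was 4.57 with a prior count of 2, against 5.62 with 0.5, since the larger prior pulls few counts together. Levels of Ccl3, Ccl4 and Ccl8 in wild type rest on 1, 7 and 9 counts, so depth limits their ratios.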
